A study of Mus musculus with 6 samples.

Results

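The mouse mitochondrial genome carries 37 genes, and all of them were followed here in embryonic fibroblasts. They are 13 protein-coding genes, 2 rRNA genes and 22 tRNA genes, taken as every gene on the mitochondrial chromosome (MT) of GRCm38 among the 55487 genes of the deposited tables. The cells were MEFs, connective-tissue cells grown out of mouse embryos, in untreated culture. They were KO at passages 2, 3 and 4 and WT at passages 2, 3 and 4, and each combination was sequenced once. A passage is a transfer of the cells to fresh dishes. Which gene was knocked out is not stated in the labels, so no check of its transcript was made, and they give neither the strain nor the number of embryos or cultures. The passages of a genotype may thus be 1 culture sampled repeatedly, and p-values measure only the spread between these libraries. Genotype was read from the titles. The separate genotype tag says WT for the KO libraries of passages 3 and 4.

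Mitochondrial DNA is transcribed from both strands into long RNAs, which are cut at the tRNAs that stand between most of the other genes. The mRNAs encode core subunits of respiratory complexes I, III and IV and of the ATP synthase, and the rRNAs and tRNAs serve the ribosomes that translate them. Every other protein of these complexes, and every protein that copies, transcribes or processes mitochondrial DNA, is encoded in the nucleus. Fibroblasts grown in culture draw much of their ATP from glycolysis, yet keep a working respiratory chain.

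Library totals ran from 27361852 to 67760880 expected counts in KO and from 24853121 to 42335628 in WT. Fibroblast markers were abundant in all libraries, with 9 of 9 tested, and 5 of the 9 (Col1a1, Col1a2, Col3a1, Pdgfra and Dcn) fell in KO (edgeR adjusted p 0.0107 to 0.037). Summed over the 9, fibroblast markers held 21449 to 25586 CPM (counts scaled by TMM to a common library size) in KO and 37850 to 49531 CPM in WT. Macrophage markers, 5 of 5 tested, fell with passage, and their sum ran from 12.5 to 61.7 CPM in KO and from 16.6 to 99.8 CPM in WT, and 4 of the 5 fell in KO with passage as a block. Of the 3 endothelial markers, 2 fell with passage, with sums of 8.01 to 18.0 CPM in KO and 4.92 to 13.7 CPM in WT. Muscle and erythroid markers were near 0, with 82 and 5 counts over all libraries. In bulk RNA fewer cells of a type and less RNA per cell cannot be told apart, and the part of these shifts in the mitochondrial values was not tested. Xist had 15654 to 29034 counts in KO libraries and 5 to 12 in WT libraries, while the Y-linked Ddx3y had 0 to 23 counts in KO and 1773 to 3654 in WT, so genotype and sex cannot be told apart.

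Several of the mRNAs have near-identical copies in the nuclear genome, and the sequences are shown first because they decide how the counts must be read. Nuclear copies are stretches of mitochondrial DNA that were inserted into a chromosome. Of all nuclear genes annotated in GENCODE M21, 13 shared at least 1 word of 64 bases with a mitochondrial gene. A run of 7 of them lies head to tail on the minus strand of chromosome 1, from Gm28439 (chr1:24611535-24612410) to Gm29216 (chr1:24615706-24616197), in the order of the mitochondrial map. Gm28661 is identical to mt-Co2 over all of its 681 bases and lacks only the last 3 bases of the mitochondrial gene. The last 30 bases of both are shown 5′ to 3′, with the bases absent from the nuclear annotation in capitals, for mt-Co2 (MT:7667-7696, plus strand), its copy Gm28661 (chr1:24614885-24614914, minus strand), mt-Co3 (MT:9361-9390, plus strand), its copy Gm28437 (chr1:24613189-24613218, minus strand), mt-Atp6 (MT:8578-8607, plus strand) and its copy Gm10925 (chr1:24613974-24614003, minus strand).
mt-Co2: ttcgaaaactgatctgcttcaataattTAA
Gm28661: tatttcgaaaactgatctgcttcaataatt
mt-Co3: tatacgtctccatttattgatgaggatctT
Gm28437: ctatacgtctccatttattgatgaggatct
mt-Atp6: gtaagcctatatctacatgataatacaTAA
Gm10925: ctagtaagcctatatctacatgataataca

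Gm28437 matched mt-Co3 over 783 of 783 bases, Gm10925 matched mt-Atp6 over 678 of 678 bases, and Gm10222 matched mt-Nd4l over 294 of 294 bases. Gm28439 matched the first 876 of the 1378 bases of mt-Nd4. Where a copy of the chromosome 1 run does differ, the difference is small. Gm28438 differs from mt-Nd3 at 1 of 345 bases, T3C, counted from 1 at the first base of mt-Nd3. Gm29216 covers the last 492 bases of mt-Co1 and differs at 6 of them near its start, T1056A, C1057T, A1059G, A1060G, C1062A and A1066T, counted from the first base of mt-Co1. These differing bases are in capitals below, for mt-Nd3 (MT:9459-9481, plus strand) with Gm28438 (chr1:24613097-24613119, minus strand) and for mt-Co1 (MT:6381-6407, plus strand) with Gm29216 (chr1:24616171-24616197, minus strand).
mt-Nd3: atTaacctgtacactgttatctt
Gm28438: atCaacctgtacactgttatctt
mt-Co1: ggTCtAAcCggaAttgttttatccaac
Gm29216: ggATtGGcAggaTttgttttatccaac

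The deposited tables placed the counts of these shared sequences very unevenly. For mt-Co2, a core subunit of complex IV, the mitochondrial gene itself was given 0, 391 and 782 counts in KO at passages 2, 3 and 4, against 0, 391 and 195 counts in WT. Its copy Gm28661 was given 32152, 73145 and 33337 counts in KO, against 49256, 32491 and 18207 counts in WT. With a second, minor copy, nuclear genes thus held 97.7% to 100% of the mt-Co2 sum in KO and 98.8% to 100% in WT. Nuclear copies held 89.9% to 93.6% of the mt-Co3 sum in KO and 94.0% to 94.9% in WT, and 84.5% to 87.1% of the mt-Atp6 sum in KO and 83.1% to 89.5% in WT. For mt-Nd4l the share varied most, at 36.0%, 5.65% and 24.2% in KO, against 35.2%, 26.0% and 0% in WT.

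The other copies took little. For mt-Co1 the copies held 1.72% to 2.95% of the sum in KO and 2.11% to 6.57% in WT, and the copies of mt-Nd3 and mt-Nd4 had 0 counts in every library, although their sequences are as close. RSEM divides a read that fits several genes by a model. The bases of an identical stretch do not tell the genes apart, so the split between a mitochondrial gene and an identical copy cannot be read as expression of either. Gm29216 is not identical to mt-Co1, but reads of their shared stretch outside its 6 differing bases have the same limit. Single-gene values below for mt-Co1, mt-Co2, mt-Atp6, mt-Co3 and mt-Nd4l are therefore of the gene summed with its nuclear copies, unless stated otherwise. This step was chosen after the data were seen. For the other mRNAs and the rRNAs the sum equals the deposited count to within 1 count.

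**Figure D1:**
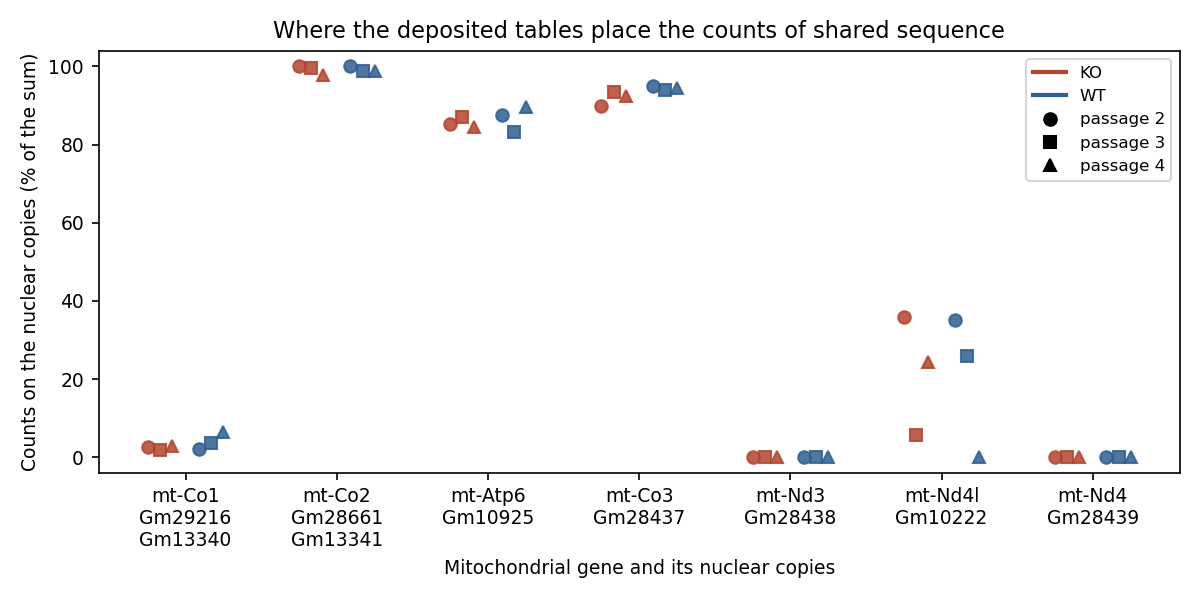
Percentage of the summed counts of a mitochondrial gene and its nuclear copies that the deposited tables give to the copies (y axis), for the 7 genes with a copy on chromosome 1 (x axis); each point is 1 library, KO left and WT right of each gene, and the marker gives the passage. The mt-Co2, mt-Atp6 and mt-Co3 points lie at 83.1% or above in all libraries, and those of mt-Nd4l spread from 0% to 36.0%.

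The mitochondrial share of a library followed passage differently in the 2 genotypes. The 37 genes held 0.780%, 0.815% and 0.887% of the counts of KO libraries at passages 2, 3 and 4, against 0.859%, 0.636% and 0.544% in WT. The KO values lay close together and were higher at each later passage, while the WT values were lower at each later passage, and the WT library of passage 2 lay among the KO libraries. The mean was 0.828% ± 0.0543 in KO and 0.680% ± 0.162 in WT (SD, n = 3 each), a difference of 0.148 percentage points (two-sided exact permutation test, p = 0.30, where 3 against 3 cannot go below 0.10). Within passages the ratio of KO to WT was 0.909 at passage 2, 1.28 at passage 3 and 1.63 at passage 4.

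Counting the nuclear copies in, the share was 1.15%, 1.18% and 1.26% in KO, against 1.27%, 0.933% and 0.788% in WT (exact permutation p = 0.40). On this measure the WT library of passage 2 was the highest of all, while on the 37 genes alone it lay below the KO library of passage 4. Without the copies, the protein-coding genes made up nearly all of the share of the 37 genes, with 0.744%, 0.770% and 0.857% in KO, against 0.819%, 0.587% and 0.523% in WT. The 2 rRNA genes, which make the most abundant RNAs of the organelle in living cells, held only 0.0363%, 0.0451% and 0.0301% in KO, against 0.0400%, 0.0494% and 0.0204% in WT, and their groups overlapped. The labels do not say how rRNA was treated when the libraries were made, so the rRNA values are not read as levels in the cell.

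**Figure D2:**
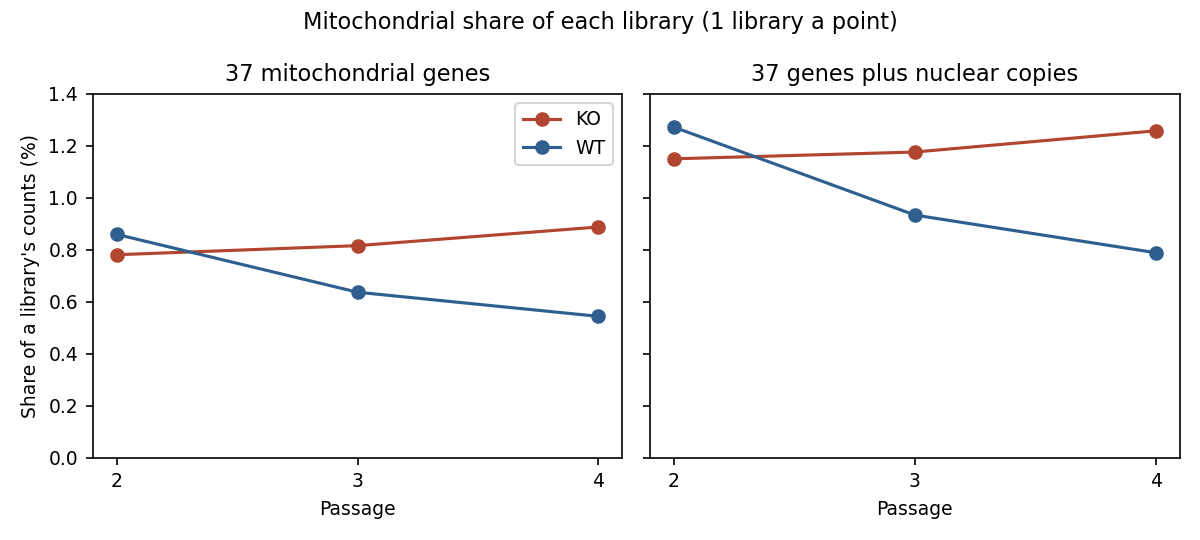
Share of a library's expected counts in percent (y axis) by passage (x axis), for the 37 mitochondrial genes (left) and for these plus their nuclear copies (right); each point is 1 library, KO in red and WT in blue. KO points are higher at each later passage and WT points are lower, and the lines cross between passages 2 and 3.

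Per unit of length the members differed widely and kept much the same order in both genotypes. On the TPM scale, mt-Co1, the catalytic subunit of complex IV (ENSMUSG00000064351, MT:5328-6872, plus strand, protein-coding), stood first with 4392 ± 931 TPM in KO and 4177 ± 996 TPM in WT (SD, n = 3 each). Next came mt-Atp6 with 3805 ± 334 TPM in KO and 3042 ± 1426 TPM in WT, mt-Co3 with 3735 ± 296 TPM in KO and 3270 ± 927 TPM in WT, and mt-Co2 with 3357 ± 193 TPM in KO and 2616 ± 861 TPM in WT. The ranges of mean ± SD overlapped between neighbours in this order, in both genotypes. These TPM are the gene's TPM plus that of its copies. The copy Gm29216 is 492 bases long against 1545 for mt-Co1, so each of its counts adds more TPM. Without its copies mt-Co1 had 3342, 3816 and 4899 TPM in KO, against 4937, 3141 and 2886 TPM in WT. Its first place thus depends, in some libraries, on how the copies are added. The lowest mRNA was mt-Nd6, a complex I subunit and the only mRNA of the minus strand (ENSMUSG00000064368, MT:13552-14070), with 331 ± 45.1 TPM in KO and 350 ± 161 TPM in WT.

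The level of mt-Nd6 was 23.5%, 19.3% and 25.5% of the median plus-strand mRNA in KO, against 31.6%, 31.6% and 26.8% in WT. It shares 14 bases with mt-Nd5 on the other strand, and the rest of it lies between the plus-strand genes mt-Nd5 and mt-Cytb. Strand handling is not given in the sources used here. Counts on mt-Nd6 and on plus-strand RNA that runs across it thus cannot be told apart. Neighbours that remain joined in 1 mRNA, with overlapping reading frames, did not have equal TPM. The ratio of mt-Atp8 to mt-Atp6, which overlap by 43 bases, was 0.278, 0.481 and 0.324 in KO, against 0.472, 0.503 and 0.211 in WT. The ratio of mt-Nd4l to mt-Nd4, which overlap by 7 bases, was 0.884, 0.751 and 0.796 in KO, against 0.813, 0.824 and 0.777 in WT. mt-Atp8 is 204 bases long, with an effective length (the start positions open to a fragment) of at most 107, so its TPM depends strongly on fragment length. mt-Nd4l is also short, with an effective length of about 200 against about 1280 for mt-Nd4. The part of length in these ratios was not tested, so they are not read as unequal RNA levels.

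Complex I, which takes electrons from NADH, has 7 mitochondrially encoded subunits, and those at the start of the map stood higher in KO. mt-Nd1 (ENSMUSG00000064341, MT:2751-3707, plus strand) had 1043, 1046 and 1075 CPM in KO, against 910, 698 and 667 CPM in WT. mt-Nd2 (ENSMUSG00000064345, MT:3914-4951, plus strand) had 384, 448 and 450.5 CPM in KO, against 352, 248 and 220.0 CPM in WT. For both genes every KO library was above every WT library, with the narrowest gap at passage 2. The difference was log2 0.48 ± 0.14 SE for mt-Nd1 (edgeR adjusted p = 0.113) and 0.64 ± 0.18 SE for mt-Nd2 (edgeR adjusted p = 0.109), neither of them called.

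Passage can also be held constant in the fit. Over all genes tested, libraries of the same passage deviated together at passages 2 and 4 (correlations of 0.488 and 0.416), but only weakly at passage 3 (0.137). From passage 2 to 4 the mitochondrial mRNAs and rRNAs had a median change of log2 0.04 in KO and -0.66 in WT. These medians do not measure pairing, which was not computed for these genes alone. Some of them, such as mt-Rnr1, mt-Rnr2 and mt-Cytb, ranked the passages alike in both genotypes. Others, such as mt-Co1, did not. With passage as a block mt-Nd1 rose in KO (log2 0.49, edgeR adjusted p = 0.0426), and mt-Nd2 did not pass (log2 0.67, adjusted p = 0.058). By DESeq2, without the block, both passed (adjusted p = 0.0164 for mt-Nd1 and 0.0132 for mt-Nd2). The other complex I genes overlapped between genotypes. mt-Nd4 had 656, 761 and 812 CPM in KO, against 730.2, 493 and 455 CPM in WT, and mt-Nd4l had 89.7, 89.2 and 100.5 CPM in KO, against 92.4, 63.2 and 55.1 CPM in WT. mt-Nd3 had 115, 148 and 101 CPM in KO, against 102, 117 and 83.1 CPM in WT, and mt-Nd5 had 659, 652 and 718 CPM in KO, against 758, 541 and 481 CPM in WT.

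The mean of mt-Nd6 was lower in KO than in WT, unlike that of the other mitochondrially encoded complex I genes. It had 76.1, 74.6 and 83.6 CPM in KO, against 122, 89.2 and 53.9 CPM in WT. Its KO libraries lay between the WT libraries of passages 3 and 4, and its mean difference was log2 -0.18 ± 0.27 SE (edgeR adjusted p = 0.747). That difference changed sign with the libraries used, from -0.43 to 0.12 with a library left out.

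Complex III, which passes electrons to cytochrome c, has 1 mitochondrially encoded subunit, the cytochrome b gene mt-Cytb (ENSMUSG00000064370, MT:14145-15288, plus strand). It had 991, 834 and 904 CPM in KO, against 814, 553 and 628 CPM in WT. Every KO library was above every WT library, with the lowest KO value only slightly above the highest WT value. The difference was log2 0.45 ± 0.16 SE and was not called (edgeR adjusted p = 0.162), but with passage as a block mt-Cytb rose in KO (log2 0.47, edgeR adjusted p = 0.0317).

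Complex IV reduces oxygen, and its 3 mitochondrially encoded core subunits overlapped between genotypes once the nuclear copies were added. mt-Co1 had 3045, 3128 and 3793 CPM in KO, against 4032, 3138 and 2757 CPM in WT. mt-Co2 had 1159.7, 1056 and 1085 CPM in KO, against 1165, 824 and 762 CPM in WT. mt-Co3 had 1470.3, 1389 and 1448 CPM in KO, against 1611, 1438 and 1018 CPM in WT. In each of the 3 genes the WT library of passage 2 was the highest of the WT libraries and the WT library of passage 4 the lowest of all.

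The difference between genotypes was log2 0.01 ± 0.17 SE for mt-Co1, 0.26 ± 0.17 SE for mt-Co2 and 0.08 ± 0.17 SE for mt-Co3 (edgeR adjusted p = 0.989, 0.419 and 0.828). The deposited counts of mt-Co3 alone gave log2 0.62 ± 0.22 SE (edgeR adjusted p = 0.174), with every KO library above every WT library, which was not so once its copy was added. The deposited counts of mt-Co2 alone held libraries at 0 and give no usable fold.

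The ATP synthase, complex V, takes 2 membrane subunits from the mitochondrial genome. mt-Atp6 had 1226, 1251 and 1238 CPM in KO, against 1493, 984 and 692 CPM in WT. The KO libraries were almost equal, at 1238 ± 12.5 CPM, and the WT libraries spread around them, at 1056.5 ± 406 CPM (SD, n = 3 each). mt-Atp8 had 62.4, 111 and 73.6 CPM in KO, against 130.1, 91.4 and 26.7 CPM in WT, with the KO libraries inside the spread of the WT libraries. Neither was called between genotypes (log2 0.23 ± 0.25 SE and -0.01 ± 0.51 SE, edgeR adjusted p = 0.655 and 0.994).

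The rRNAs of the small and the large mitochondrial ribosomal subunit had similar means in both genotypes. mt-Rnr1 (MT:70-1024, plus strand) had 171, 197 and 138 CPM in KO, against 159, 237 and 111 CPM in WT. mt-Rnr2 (MT:1094-2675, plus strand) had 187, 242 and 154 CPM in KO, against 241, 282 and 99.0 CPM in WT. Both were highest at passage 3 and lowest at passage 4 in either genotype, and the groups overlapped (edgeR adjusted p = 0.997 and 0.916).

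**Figure D3:**
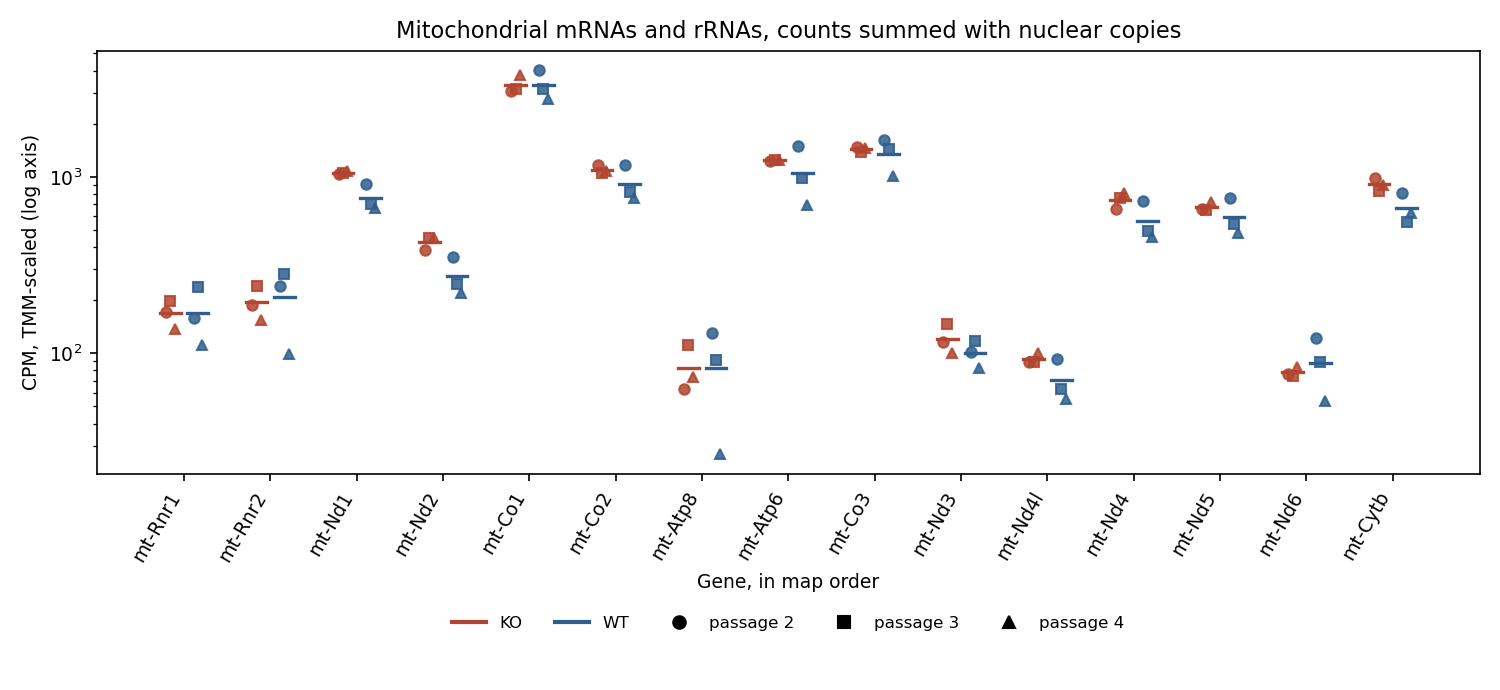
TMM-scaled CPM on a log axis (y) of the 13 mRNAs and 2 rRNAs in map order (x), summed with their nuclear copies; each point is 1 library, KO left and WT right of each gene, the marker gives the passage and the bar the mean of 3 libraries. For mt-Nd1, mt-Nd2 and mt-Cytb the KO points lie wholly above the WT points, and for the other genes they overlap.

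The 22 tRNA genes were close to invisible in these libraries. They are 59 to 75 bases long, their effective length was 0 in the tables, and the authors' TPM is 0 for all of them in every library, which is a limit of the method and no measurement of tRNA. In counts, 7 of the 22 had 0 in all libraries and 14 had between 1 and 13 over all libraries together, with at most 7 in a library. A count of 0 allows up to 3 counts, which is 0.0443 to 0.11 CPM in KO and 0.0709 to 0.121 CPM in WT before TMM scaling, for counting error only. The exception was mt-Ts1, a serine tRNA gene on the minus strand (MT:6870-6938), with 12, 83 and 21 counts in KO, against 53, 37 and 18 counts in WT.

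The mt-Ts1 sequence is shown because its end lies within mt-Co1, the mRNA with the most counts. The 3 capital bases are those that also belong to the last bases of mt-Co1 on the other strand.
mt-Ts1: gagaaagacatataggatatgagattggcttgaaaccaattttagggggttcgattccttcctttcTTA
With strand handling not given, counts on mt-Ts1 and on mt-Co1 or RNA running past its end cannot be told apart. mt-Ts1 was the 1 tRNA gene that passed the filter on low counts, and its groups overlapped (log2 -0.32 ± 0.42 SE, edgeR adjusted p = 0.713).

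In all, 16 of the 37 genes passed the filter (13 mRNAs, 2 rRNAs and mt-Ts1), and 0 of the 16 were called between KO and WT by edgeR, where 2.48% of 16603 genes were. On the deposited counts 5 of the 16 had an unadjusted p under 0.05, all of them higher in KO (10% of all genes tested), and 3 did so with the copies summed. DESeq2 called 2, where it called 10% of all genes, and edgeR with passage as a block called 2, both higher in KO, where it called 11.1% of all genes and 4.69% as higher. The median change was log2 0.21 with the copies summed and 0.30 as deposited, against -0.01 over all genes. KO libraries lay wholly above WT libraries for 3 of the 15 mRNAs and rRNAs, against 13.1% of all genes tested, and wholly below for 0 of the 15, against 14.1%. Neither the number called nor the number that did not overlap was thus far from the background.

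The make-up of the mitochondrial RNA, which no scaling between libraries touches, was set out as shares. Of the counts of the 15 mRNAs and rRNAs with their copies, mt-Nd2 held 3.39%, 3.92% and 3.70% in KO, against 2.77%, 2.53% and 2.71% in WT. mt-Nd1 held 9.20%, 9.15% and 8.83% in KO, against 7.16%, 7.12% and 8.22% in WT. mt-Co1 went the other way, with 26.9%, 27.4% and 31.2% in KO, against 31.7%, 32.0% and 34.0% in WT. For these 3 genes the groups did not overlap, nor did they for mt-Nd4 and mt-Nd4l, both higher in KO, while the other genes overlapped. The shares of a library add up to the whole, so a lower share of mt-Co1 goes with higher shares of other genes. In CPM mt-Co1 differed by log2 0.01 between genotypes. No figure over all genes exists for this measure, so the number that did not overlap is not read as a result. With 3 libraries against 3, a single value cannot reach an exact permutation p below 0.10, so these shares are given as a description.

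Passage was the second factor of the design. The test of a common slope over passages 2, 3 and 4 called 0 of the 16 genes by edgeR, where 6.25% of all genes were called. On the deposited counts 1 of 16 had an unadjusted p under 0.05, mt-Co2, whose deposited counts rest on the split with its copy (10.2% of all genes had one in that direction). With the copies summed 2 of 16 did, both lower at later passages (11% of all genes), namely mt-Co2 (log2 -0.18 ± 0.08 SE per passage, edgeR adjusted p = 0.227) and mt-Atp6 (log2 -0.28 ± 0.12 SE per passage, adjusted p = 0.231). DESeq2 called 1 on the deposited counts, again mt-Co2, where it called 10.3% of all genes. The median slope of the 16 was log2 -0.14 per passage with the copies summed, against 0.00348 over all genes.

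A common slope hides the contrast between the genotypes. From passage 2 to passage 4 the log2 change in KO ran from -0.32 to 0.32 over the 15 mRNAs and rRNAs, with a median of 0.04 and 9 of 15 above 0. In WT it ran from -2.28 to -0.30, with a median of -0.66 and 0 of 15 above 0. Within passages, KO was higher than WT for 5 of the 15 genes at passage 2 (median log2 -0.13), for 10 at passage 3 (median 0.33) and for all 15 at passage 4 (median 0.63). At passage 4 the largest of these differences was that of mt-Atp8 (log2 1.46), followed by mt-Nd2 (log2 1.03). Each such value sets 1 library against 1 and has no replicate, and no such counts over all genes are given here.

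The slopes of KO and WT were compared by an interaction term. With the copies summed, the slope was higher in KO for 16 of the 16 genes, against 53.3% of all genes, with a median difference of log2 0.44 per passage against 0.02. By edgeR 0 of the 16 were called, as were 0% of all genes, with only 2 residual degrees of freedom. An unadjusted p under 0.05 was reached by 9 of the 16, and by 7 on the deposited counts, all higher in KO, where 2.78% of all genes reached it in that direction. These genes share libraries and precursor RNAs and are not independent.

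The smallest p was that of mt-Nd6 (log2 0.66 ± 0.11 SE per passage, edgeR adjusted p = 0.549), followed by mt-Atp6 (log2 0.56 ± 0.11 SE per passage, adjusted p = 0.549). DESeq2 called mt-Nd6 on the deposited counts, and both mt-Nd6 and mt-Atp6 with the copies summed, where it called 0.5% of all genes. mt-Nd3, mt-Cytb and mt-Rnr1 had the smallest differences (log2 0.05, 0.12 and 0.10 per passage). The WT library of passage 4, from which the largest of these contrasts come, was also the smallest library, with 24853121 counts.

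**Figure D4:**
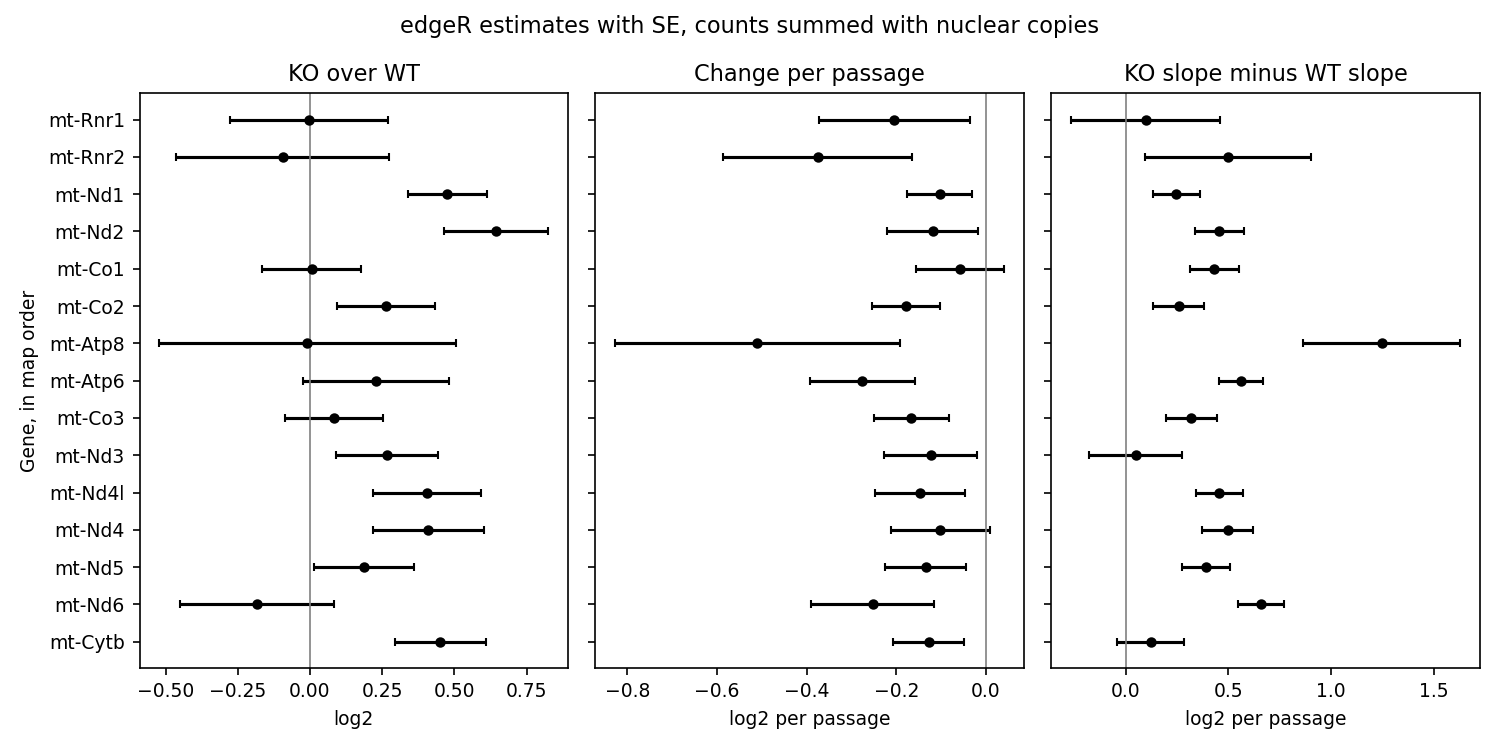
edgeR estimates with SE for the 13 mRNAs and 2 rRNAs in map order (y), with nuclear copies summed: log2 KO over WT (left), log2 change per passage (middle) and KO slope minus WT slope in log2 per passage (right). All points of the right panel lie above 0, from 0.05 for mt-Nd3 to 1.25 for mt-Atp8, and all points of the middle panel lie below 0.

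The nuclear subunits of the same complexes gave the opposite picture over passage. Of 73 listed nuclear subunits of complexes I, III, IV and V, 72 were tested. KO was higher than WT for 69 of the 72 at passage 2 (median log2 0.45), for 27 at passage 3 (median -0.12) and for 8 at passage 4 (median -0.25). These counts rest on a single library per genotype and passage, and no such counts over all genes are given here. The difference of slopes was below 0 for 70 of the 72, with a median of log2 -0.36 per passage, and had an unadjusted p under 0.05 in that direction for 48, against 4.07% of all genes (edgeR, 0 called). The mitochondrially encoded subunits thus stood on the other side of 0 from the nuclear subunits in every complex, apart from the 2 nuclear subunits above 0, Cox7a1 and Atp5g2. The difference between the sets of genes was not tested.

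Between KO and WT 0 of the 72 nuclear subunits were called by edgeR, where 2.48% of all genes were, with a median of log2 0.03. At an unadjusted p under 0.05, 5 were higher and 2 lower, where 10% of all genes were higher and 11.3% lower. With passage as a block Ndufv3, a complex I subunit, fell in KO (log2 -0.56, adjusted p = 0.0366), as 1 of 72 called, where that fit called 11.1% of all genes and 6.37% as lower. It had 39.3, 34.1 and 28.1 CPM in KO, against 46.9, 61.4 and 41.6 CPM in WT. DESeq2 called 1 of the 72, where it called 10% of all genes.

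**Figure D5:**
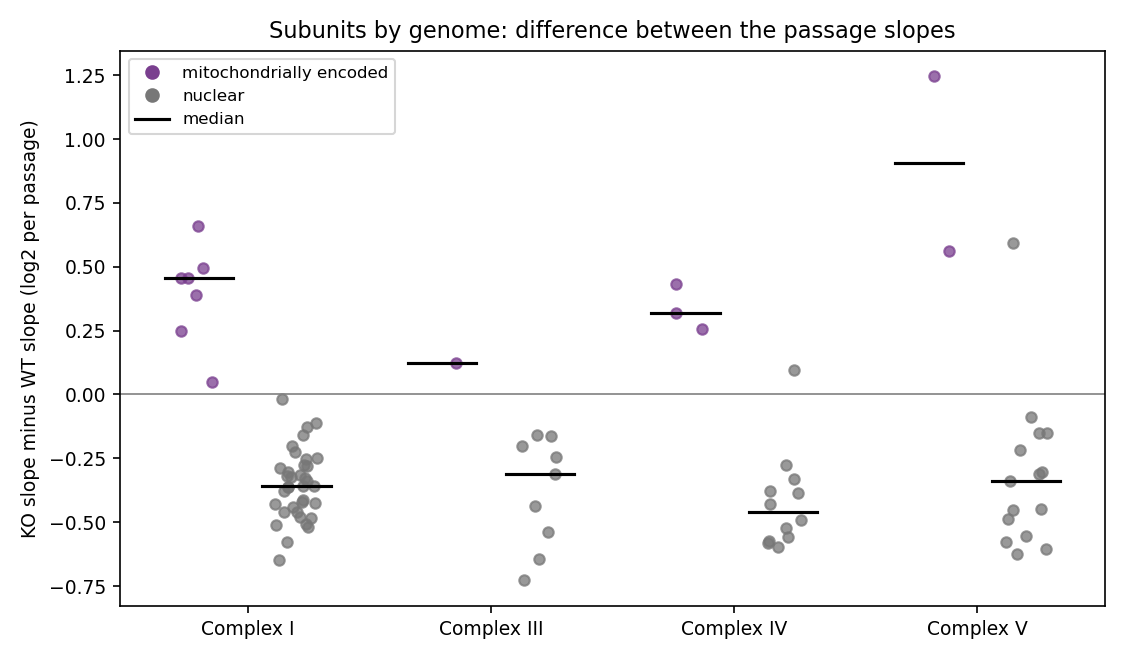
Difference between the passage slopes, KO minus WT, in log2 per passage (y), for mitochondrially encoded (purple) and nuclear (grey) subunits of 4 respiratory complexes (x); each point is a gene and the bar is the median. The purple points lie above 0 and the grey points below 0, except for Cox7a1 in complex IV and Atp5g2 in complex V.

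The nuclear genes that copy, transcribe, process and translate mitochondrial DNA and RNA were counted next. Of 77 listed genes, all tested, 0 were called between KO and WT by edgeR, where 2.48% of all genes were. An unadjusted p under 0.05 was reached by 18 of the 77, all higher in KO (10% of all genes), and the median was log2 0.14. DESeq2 called 6 of the 77, where it called 10% of all genes. With passage as a block 5 of the 77 rose in KO, where 4.69% of all genes did, so both counts were near the background. The 5 were Trmt10c, a subunit of the enzyme that cuts the 5′ ends of mitochondrial tRNAs (log2 0.51, adjusted p = 0.0343), Lrpprc, which stabilises mitochondrial mRNAs (log2 0.59, adjusted p = 0.0423), Fastkd2, an RNA-binding protein of the mitochondrial ribosome's assembly (log2 0.56, adjusted p = 0.0338), C1qbp, a matrix protein needed for translation (log2 0.86, adjusted p = 0.0377), and Slc25a33, a pyrimidine nucleotide carrier (log2 0.91, adjusted p = 0.0396).

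Lrpprc had 94.9, 81.4 and 81.5 CPM in KO, against 65.6, 41.2 and 68.6 CPM in WT, and its groups did not overlap. Its partner Slirp had 25.7, 17.3 and 16.7 CPM in KO, against 16.6, 19.8 and 20.2 CPM in WT, and overlapped. C1qbp had 112, 89.0 and 75.6 CPM in KO, against 52.9, 38.7 and 62.2 CPM in WT.

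None of the core transcription genes was called with or without the block. Polrmt, the mitochondrial RNA polymerase, had 20.2, 21.8 and 20.3 CPM in KO, against 17.6, 16.03 and 19.5 CPM in WT (log2 0.24 ± 0.12 SE, edgeR adjusted p = 0.300). Tfam, which packages mitochondrial DNA and opens its promoters, had 26.9, 26.1 and 23.7 CPM in KO, against 25.0, 22.3 and 25.4 CPM in WT (adjusted p = 0.742). Tfb2m, the initiation factor, had 17.3, 19.8 and 20.2 CPM in KO, against 14.4, 14.3 and 17.3 CPM in WT (adjusted p = 0.219). The elongation factor Tefm (log2 0.24), Mterf3 (log2 0.14), the DNA polymerase Polg (log2 0.20) and the helicase Twnk (log2 0.31) were also not called.

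The biogenesis regulators Ppargc1a and Ppargc1b were at low levels. Ppargc1a, a coactivator that drives mitochondrial biogenesis, had 0.613, 0.574 and 0.477 CPM in KO, against 0.922, 1.002 and 0.579 CPM in WT (log2 -0.60 ± 0.32 SE, adjusted p = 0.335). Its relative Ppargc1b had 3.50, 2.22 and 0.922 CPM in KO at passages 2, 3 and 4, against 1.94, 1.38 and 0.911 CPM in WT. It fell with passage (log2 -0.75 per passage, edgeR adjusted p = 0.0369). It was the only one of the 77 to be called in that test, where 6.25% of all genes were.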

How the data were processed

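RNA of 6 MEF libraries was column-purified total RNA, per the labels. Per the submitters' processing notes, Trimmomatic 0.39, RSEM and build GRCm38 were used. Other settings and strand handling: not given in the sources used here. Each deposited table holds expected counts, which the authors' RSEM run divided among genes, so that 12.0% to 15.8% of values were not whole, TPM, which that run scaled for length, and FPKM, scaled by length and depth and not used. Library totals were 24853121 to 67760880. Symbols and sequences came from GENCODE M21.

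Counts were rounded, scaled by TMM and tested with edgeR 4.0.16 in R 4.3.3 (robust quasi-likelihood test, low-count filter at 10, Benjamini-Hochberg adjusted p under 0.05 over all genes tested). The fits were of genotype alone, of slope per passage with genotype, and of the difference of slopes. CPM are TMM-scaled. Alternatives used DESeq2 1.42.0, limma 3.58.1 on log2(TPM + 1), other scalings, a passage block and left-out libraries. Scripts were tested on simulated data. Libraries of the same passage deviated together at passages 2 and 4 (correlations of 0.488 and 0.416), but only weakly at passage 3 (0.137). The labels do not say whether libraries of the same passage were handled as pairs.

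Members and gene lists were chosen with earlier results of these data known. The genes named were all members by class, fixed core nuclear factors and any listed nuclear gene called. Nuclear copies were found by shared words of 64 bases. The neural and epithelial markers summed to 48.6 to 66.3 CPM and 1.69 to 5.19 CPM in KO, and to 57.3 to 60.8 CPM and 0.331 to 5.96 CPM in WT.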

Additional observations from a re-analysis of the deposited data

Results flagged for a closer look

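The mitochondrial share of counts moved in opposite directions with passage in the 2 genotypes. It was higher at each later passage in KO (0.780%, 0.815% and 0.887%) and lower at each later passage in WT (0.859%, 0.636% and 0.544%). The slope per passage was 0.0533 percentage points in KO and -0.158 in WT, a difference of 0.211 percentage points. Exchanging the genotype labels within passages gave p = 0.50 (exact permutation test, two-sided), the smallest that these 8 arrangements allow, so the data cannot show by this test whether the slopes differ.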

How the results depend on the processing

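The number of mitochondrial genes called between KO and WT was 0. It was 2 with the replicate block (passage) (11.1% of all genes were called) and 2 with DESeq2 (10%), both as deposited and with nuclear copies summed. Leaving out 1 library at a time gave 0 as deposited and 0 to 1 with the copies summed, where 1 was called without WT replicate 2 (0.755% of all genes). Per passage it was 0, and 1 with DESeq2 (10.3% of all genes were called), 1 for passage 4 against passage 2 (5.29%) and 7 with no filter (7.74%). Leaving out 1 library gave 0 to 1 per passage, where 1 was called without WT replicate 3 (7.77%). For a different slope it was 0, and 1 with DESeq2 (0.5% of all genes) and 3 with no filter (0.915%), or 2 with DESeq2 when summed. Nuclear expression genes numbered 0, and 5 with the block (11.1% of all genes), 6 with DESeq2 (10%), 1 with log2(TPM + 1) (2.33%) and 1 with library totals only (2.5%). With a library left out they numbered 0 to 2, where 2 were called without WT replicate 4 (4.85% of all genes). Nuclear subunits numbered 0, and 1 with the block (11.1% of all genes) and 1 with DESeq2 (10%). The difference in mitochondrial share was above 0 in every alternative, from 0.0801 to 0.238 with a library left out. For the rRNA genes alone it was close to none, at 0.000567 percentage points. There KO over WT was 0.9075, 0.913 and 1.475 at passages 2, 3 and 4. The causes of these shifts were not tested.

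Of the values of single mitochondrial genes, none that changed direction was called in either setting. For KO over WT the log2 value changed sign with the replicate block for mt-Rnr1 (0.050), mt-Rnr2 (0.011) and mt-Atp8 (0.21), with DESeq2 for mt-Rnr1 (0.0097) and mt-Atp8 (0.0050), with nuclear genes only for scaling for mt-Rnr1 (0.0022) and mt-Atp8 (0.00092), with DESeq2 size factors in edgeR for mt-Rnr1 (0.0095) and mt-Atp8 (0.0038), and with library totals only for mt-Rnr1 (0.074) and mt-Atp8 (0.058). On the log2(TPM + 1) scale it did so for mt-Rnr1 (0.17), mt-Rnr2 (0.13), mt-Atp8 (0.35) and mt-Nd6 (0.016), and mt-Ts1 was 0 in all fits because its TPM is 0. With genotype from the tag it did so for mt-Rnr1 (0.023), mt-Co1 (-0.14), mt-Nd4l (-0.17) and mt-Co2 (-11.56, from libraries at 0 counts), and without both passage 2 libraries for mt-Rnr2 (0.054), mt-Ts1 (0.17), mt-Atp8 (0.64) and mt-Nd6 (0.14). With 1 library left out at a time the values ran from -0.22 to 0.33 for mt-Rnr1, -0.42 to 0.20 for mt-Rnr2, -0.094 to 0.20 for mt-Co1, -1.02 to 1.36 for mt-Co2, -0.41 to 0.47 for mt-Atp8 and -0.43 to 0.12 for mt-Nd6, and with copies summed from -0.099 to 0.17 for mt-Co1 and -0.076 to 0.22 for mt-Co3. Per passage, leaving out 1 library gave -0.27 to 0.049 for mt-Nd2, -0.23 to 0.072 for mt-Co1, -0.47 to 0.11 for mt-Ts1, -0.078 to 0.20 for mt-Nd4l, -0.26 to 0.092 for mt-Nd4 and -0.27 to 0.0088 for mt-Nd5, and with copies summed -0.21 to 0.083 for mt-Co1 and -0.30 to 0.020 for mt-Nd4l. Summing the copies turned mt-Co2 (-0.18) and mt-Nd4l (-0.15) per passage, and log2(TPM + 1) turned the summed mt-Co1 (0.0037). The cause was not tested, except that summing copies removes the split between identical sequences. No sign changed for mt-Nd1, mt-Nd2 or mt-Cytb between KO and WT. The 3 libraries a group, the 2 residual degrees of freedom of the slope test and the near absence of tRNA counts limit what could be called.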
